A study of Mus musculus with 12 samples.

Results

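Short predicted noncoding RNA loci are rows of the deposited gene tables whose name is only Gm and digits and whose span is at most 330 bases. Loci were selected on their level: at least 1 of the 6 libraries had to reach 1 FPKM (fragments divided by locus length and sequencing depth). Of 36883 rows in each table, 2918 carried such a name within that span, and 543 of these reached the level. They lay on 20 chromosomes; 45 spanned under 90 bases, 245 spanned 90 to 150 bases and 253 spanned above 150 bases. The level was thus used to choose them, and all values here are descriptions. Just inside the level were Gm25371 and Gm25834, both with 1.002 FPKM as their highest value, and just outside were Gm15216 with 0.997 and Gm25703 with 0.990 FPKM. At the span limit, Gm14107 and Gm12178 (330 bases) were inside, and Gm12452 (331 bases) and Gm14279 (332 bases) were outside.

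The libraries came from mouse embryonic stem (ES) cells, wild type or deficient in Drosha, the nuclear ribonuclease that releases microRNA hairpins from their primary transcripts. Each genotype gave 1 library of poly(A)-selected mRNA (the poly(A) fraction), 1 of long RNA and 1 of short RNA, so no difference has a replicate check. Both genotypes were grown in serum with leukemia inhibitory factor. The labels give the AB1 line (129Sv/Ev) for the DNA samples of both genotypes and name no strain for the RNA samples; the sources used here do not say whether the Drosha-deficient cells are 1 clone. The long fraction was matched to the total RNA titles by elimination.

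Drosha itself had 42.1 (wild type) and 6.22 FPKM (Drosha-deficient) in the poly(A) fraction, and 21.2 and 4.34 FPKM in the long fraction. Values are given in this order throughout. All 8 ES cell markers (such as Pou5f1 and Nanog) were above 0 in both mRNA libraries, with summed levels of 2132 FPKM in wild type and 2180 FPKM in Drosha-deficient cells. The 8 fibroblast markers summed to 119.8 and 10.4 FPKM in the poly(A) fraction, with 1 of them at 0 in wild type, and to 45.6 and 2.78 FPKM in the long fraction. The part of this difference in the results below was not tested.

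Many such names stand for genes that were found by sequence likeness to known small RNAs. Small nuclear RNAs (snRNAs) form the cores of the spliceosome: U1 binds the 5′ splice site, U2 the branch point, U5 aligns the exons and U6 is part of the catalytic centre. They end without a poly(A) tail and exist as many near-identical gene copies and pseudogenes. Small nucleolar RNAs (snoRNAs) guide the chemical modification of ribosomal RNA and are mostly cut from introns of host genes. 7SL RNA is the scaffold of the signal recognition particle, which brings secreted proteins to the endoplasmic reticulum. None of these RNAs is known to be made by Drosha, which most microRNAs need.

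Of the 543 loci, 362 matched a RefSeq record of GRCm38. These records named 170 as snRNA, 135 as pseudogene, 46 as snoRNA, 3 as guide RNA, 3 as transcribed pseudogene, 2 as small cytoplasmic RNA, 2 as protein-coding and 1 as microRNA. The other 181 loci matched no record under the overlap and name rules used, and are called loci without a record here. Some of them lie inside a longer RefSeq gene of their own name. Such genes are protein-coding for Gm9805, Gm10509 and Gm16381, and pseudogenes for Gm8805 and Gm6682. For loci with no such gene the label noncoding rests on the name alone. The 2 protein-coding records and the protein-coding genes of the same name go against it. Inside a larger RefSeq gene lay 105 loci, 40 of them inside a protein-coding gene. For some this is the gene of their own name. Reads of a host transcript cannot be told apart from those of the locus. Classes followed length: 127 of the 170 snRNA records were of 90 to 150 bases, and 100 of the 135 pseudogenes were above 150 bases. Of the snRNA records, 94 had the 107 bases of Rnu6 (the U6 gene), 15 had the 164 bases of Rnu1a1 (a U1 gene), 5 had the 165 bases of Rnu1b1 and 5 had the 116 bases of Rnu5g (a U5 gene). Another 9 had 191 bases. These groups rest on length and class; their sequences were not compared.

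The microRNA record is Gm25500, 1 of 8 short loci inside Taf1d, a gene that encodes a subunit of the RNA polymerase I factor SL1 and hosts snoRNAs. Its hairpin is shown because it is the only microRNA record among these loci (chr9:15312611-15312669, plus strand, GRCm38.p6, from RefSeq). The row of the tables spans 123 bases and the hairpin record 59. Capitals mark both mature arms in the hairpin and the seed (bases 2 to 8) in each mature sequence:
Gm25500 hairpin: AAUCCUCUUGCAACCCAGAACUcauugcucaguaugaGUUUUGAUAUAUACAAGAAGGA
mmu-miR-7650-5p: aAUCCUCUugcaacccagaacu
mmu-miR-7650-3p: gUUUUGAUauauacaagaagga
Among 1679 mature mouse microRNAs in the RefSeq table, 0 others carried either seed. A host promoter window is shown because 8 loci lie behind it (Taf1d, chr9:15305964-15306263, plus strand, GRCm38.p6, from RefSeq; capitals mark the 50 bases after the start used by that table, which lies inside the gene record that begins at 15305953):
Taf1d promoter: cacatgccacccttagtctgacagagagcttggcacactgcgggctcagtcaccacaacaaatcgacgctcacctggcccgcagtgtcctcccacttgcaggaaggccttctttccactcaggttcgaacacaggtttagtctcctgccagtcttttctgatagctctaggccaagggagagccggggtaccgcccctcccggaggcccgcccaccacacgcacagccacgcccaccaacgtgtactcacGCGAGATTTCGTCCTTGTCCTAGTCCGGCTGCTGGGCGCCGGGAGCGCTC
It holds 19 CG dinucleotides, and 28.1% of 32851 RefSeq promoter windows of the same length hold at least as many, with a median of 7.

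On loci this short, an FPKM value depends on how the length of fragments was modelled. The deposited values were whole multiples of a step in 98.0% to 100.0% of low values (within 0.1 of a whole number), and the step depended on span and library. The fit gave 22800000 fragments for wild type and 25800000 for Drosha-deficient cells in the poly(A) fraction, 19200000 and 23100000 in the long fraction, and 2720000 and 3110000 in the short fraction. The modelled mean fragment was 23.9 bases in wild-type and 66.5 bases in Drosha-deficient short RNA, 45.8 and 58.1 bases in the long fraction, and 56.9 and 66.9 bases in the poly(A) fraction. At 107 bases, 1 fragment was therefore worth 4.43 FPKM in wild-type but 7.82 FPKM in Drosha-deficient short RNA. At 57 bases these values were 10.8 and 52.7 FPKM, and at 300 bases 1.33 and 1.38 FPKM. For the long fraction at 57 bases they were 3.05 and 4.73 FPKM, so an equal number of fragments gave a higher FPKM in Drosha-deficient cells on the shortest loci. Fragment counts are given beside FPKM for this reason; under 90 bases they are approximate.

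**Figure D1:**
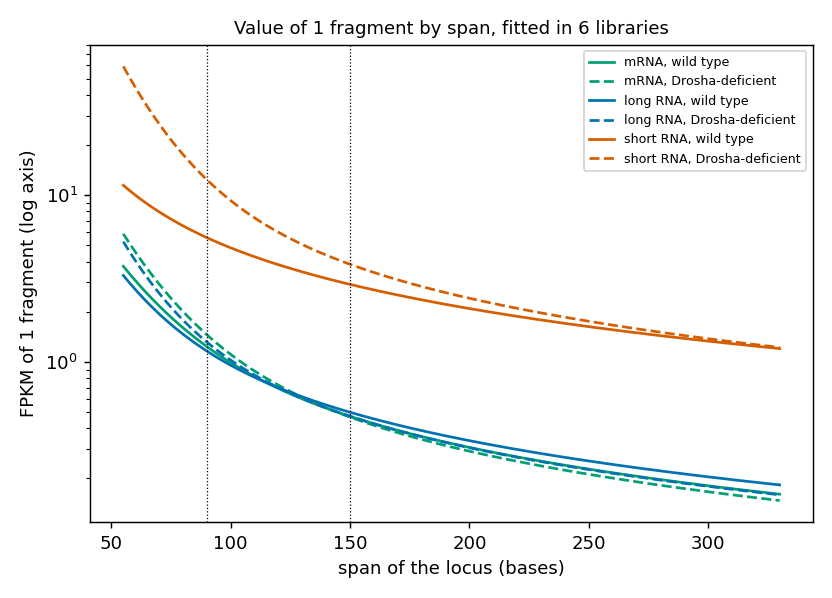
FPKM value of 1 fragment (log axis) against the span of a locus in bases, from the fit to each of 6 libraries; solid lines are wild type, broken lines Drosha-deficient, and dotted verticals mark 90 and 150 bases. The short RNA lines draw apart as the span falls, from 1.33 and 1.38 FPKM at 300 bases to 2.63 and 3.30 FPKM at 164 bases and 4.43 and 7.82 FPKM at 107 bases.

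Detection differed by fraction and span. At 1 FPKM or more, 487 loci were found in the long fraction, 297 in the poly(A) fraction and 103 in the short fraction. Long RNA alone held 219 loci, of which 161 were of 90 to 150 bases. The poly(A) fraction alone held 43 and short RNA alone 11. Of 74 loci found in all 3 fractions, 69 spanned above 150 bases, 3 spanned 90 to 150 bases and 2 under 90 bases. Signal was thin for many: 143 loci had at most 3 fragments in every library, and 123 had a highest value under 2 FPKM. At the other end, 67 loci reached 100 FPKM. In the short fraction 440 loci were listed at 0 in both libraries, among them all 170 snRNAs and all 46 snoRNAs. The 72 copies of 5S ribosomal RNA and 6 rows named as snoRNAs were also at 0 there, as were Rnu11 and Rnu12, while Rn7sk had 8450 and 33603 FPKM; why these classes were at 0 was not tested.

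A locus counts as higher or lower in Drosha-deficient cells where the authors' status was OK, 1 library reached 1 FPKM and log2((Drosha-deficient FPKM + 1)/(wild-type FPKM + 1)) was at least 1 in size. Of 297 short loci measured in the poly(A) fraction, 114 were called higher, against 8.64% of all 14752 measured rows, and 61 were called lower, against 7.93%. Their median log2 difference was 0.39, where that of all rows was 0.008. Of 487 loci measured in the long fraction, 115 were higher (6.26% of 13933 rows) and 124 were lower (6.89%), with a median of -0.17 (all rows -0.042; -0.40 with the wild-type fragment length for both libraries, chosen after seeing the data). In the short fraction, 17 of 48 were higher (14.8% of 2597 rows) and 16 were lower (18.4%), with a median of 0.77 (all rows -0.028; 0.33 with the wild-type fragment length). Since few fragments alone can give a 2-fold difference, the counts were also taken where both libraries together held at least 20 fragments. Then 63 of 163 were higher and 36 lower in the poly(A) fraction, where 42.3% of all rows of at most 330 bases were higher and 19.9% lower. Of 219 in the long fraction 43 were higher and 67 lower (16.7% and 33.8% of such rows), and in the short fraction 7 of 14 were higher and 3 lower (11.7% and 81.1%). The short loci make up much of these last backgrounds in the poly(A) fraction and long RNA, and microRNA genes much of that in the short fraction.

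**Figure D2:**
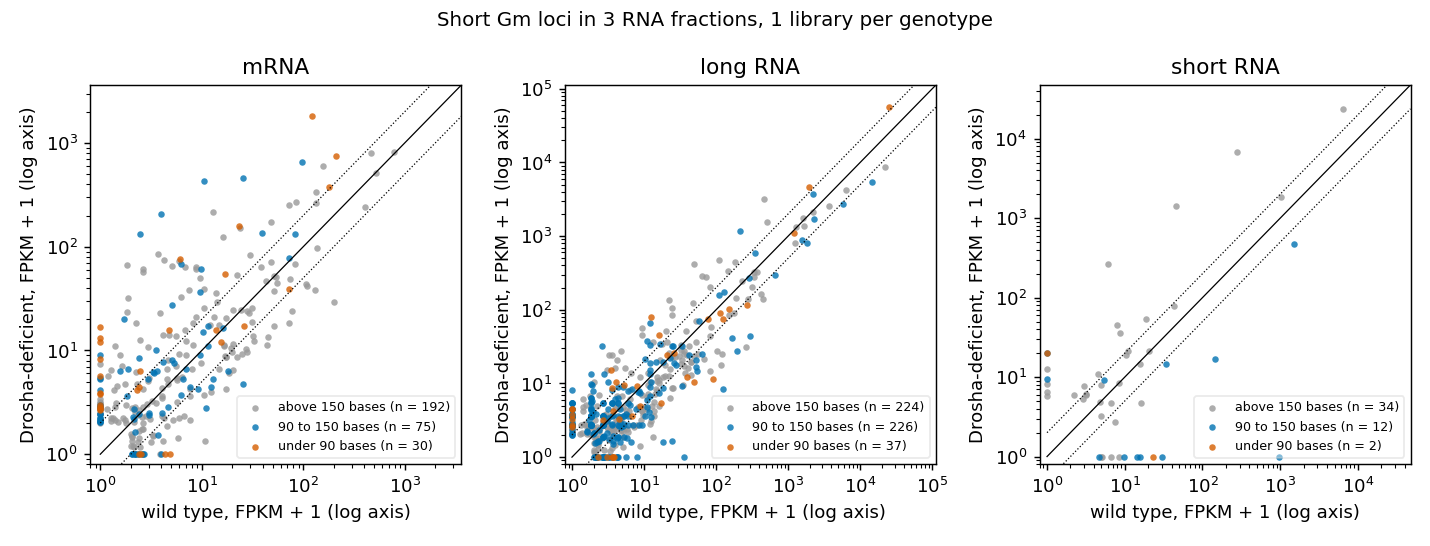
Wild-type against Drosha-deficient FPKM + 1 (log axes) of each measured short locus in the poly(A) fraction, long RNA and short RNA, coloured by span class; the solid line marks equal values and dotted lines a 2-fold difference. Points lie above and below the lines in each fraction, 114 higher and 61 lower in the poly(A) fraction and 115 and 124 in the long fraction, and the rows of points along the axes have 0 in 1 library.

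By span, the shortest class stood highest in the poly(A) fraction. Of all measured rows in the long fraction 6.26% were higher and 6.89% lower, and in the poly(A) fraction 8.64% and 7.93%. Under 90 bases, 20 of 30 were higher and 4 lower, and the median difference was 1.499, but the median number of fragments in both libraries together was 3. From 90 to 150 bases 32 of 75 were higher and 16 lower (median 0.68), and above 150 bases 62 of 192 were higher and 41 lower (median 0.11). With the wild-type fragment length used for both libraries, the class under 90 bases had 18 higher and 6 lower and a median of 1.18. Medians in the long fraction were -0.005 under 90 bases (13 higher and 10 lower of 37), 0.10 from 90 to 150 bases (62 and 56 of 226) and -0.42 above 150 bases (40 and 58 of 224). With the wild-type fragment length the class under 90 bases had 8 higher and 14 lower there, with a median of -0.52. From 90 to 150 bases it gave 52 higher and 65 lower (median -0.13), and at least 20 fragments gave 8 higher and 20 lower of 54 (median -0.43), so the balance turned in both classes. Short RNA ran the other way by span: of 12 loci of 90 to 150 bases 9 were lower and 2 higher, and of 34 above 150 bases 14 were higher and 6 lower, with medians of -2.66 and 0.91. These rested on few fragments, with medians of 3 and 5.5 in both libraries together, and 8 of the 12 had 0 in 1 library. With at least 20 fragments, 3 of 3 were lower from 90 to 150 bases. Above 150 bases, 7 of 11 were then higher and 0 lower. Of all measured short RNA rows, 14.8% were higher and 18.4% lower. Only 2 loci under 90 bases were measured in the short fraction.

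By RefSeq class, most measured snRNAs and snoRNAs were called higher in the poly(A) fraction. All measured rows had 8.64% higher and 7.93% lower there, and 6.26% and 6.89% in the long fraction. Of 45 measured snRNAs 39 were higher and 2 lower in the poly(A) fraction (median 1.83), and of 24 snoRNAs 16 were higher and 2 lower (median 1.58). Pseudogenes had more lower than higher, with 19 higher and 31 lower of 104 and a median of -0.25. Their shares of 18.3% higher and 29.8% lower were both above those of all rows. Loci without a record had 39 higher and 24 lower of 114. Of 169 snRNAs in the long fraction 56 were higher and 27 lower (median 0.40), but among the 52 with at least 20 fragments 12 were higher and 9 lower (median -0.38). There 7 of 45 snoRNAs were higher and 15 lower (median -0.35), but among the 25 with at least 20 fragments 6 were higher and 7 lower (median -0.02). Of the pseudogenes, 16 of 119 were higher and 36 lower. Rows outside the set moved in the same direction in the poly(A) fraction: 25 of 30 measured 5S ribosomal RNA copies were higher and 2 lower (median 1.77), and 5 of 9 named structural RNAs were higher and 0 lower. These classes had, in the long fraction, 1 higher and 4 lower of 11, and 0 higher and 2 lower of 9. Rn7sk, the RNA that restrains the elongation factor P-TEFb, went from 129.9 to 1067 FPKM in the poly(A) fraction and from 7811 to 8491 FPKM in the long fraction. Most of these RNAs lack a poly(A) tail; how much RNA without a tail each mRNA library held was not tested.

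**Figure D3:**
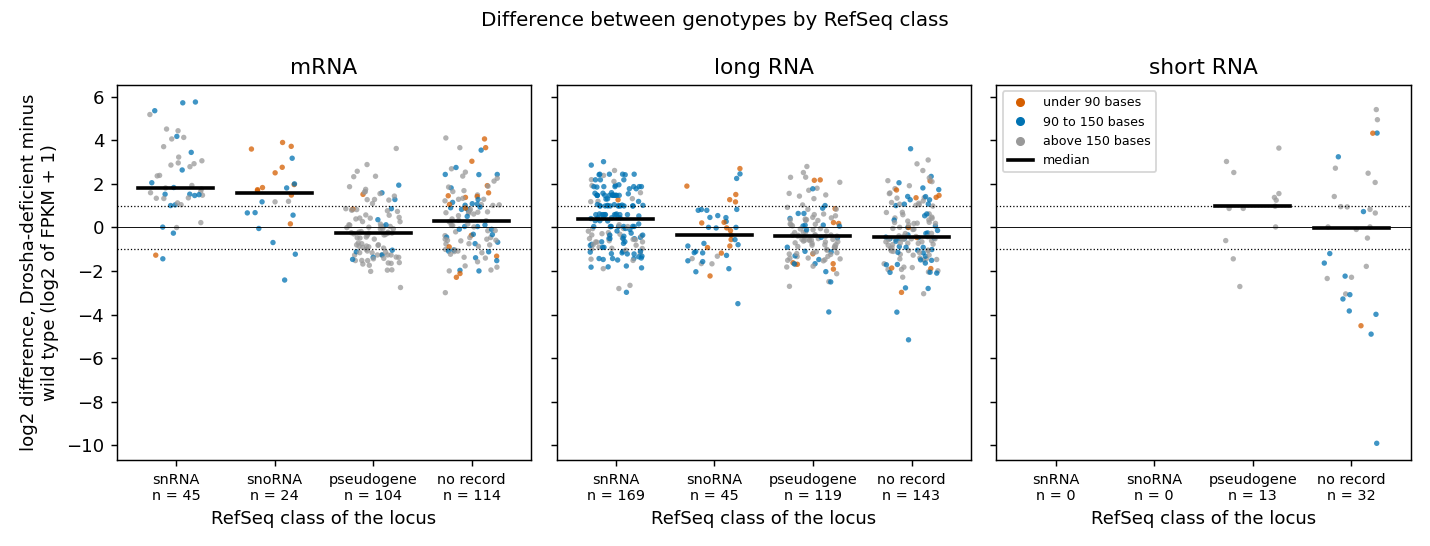
Log2 difference (Drosha-deficient minus wild type, on FPKM + 1) of measured short loci by RefSeq class in the poly(A) fraction, long RNA and short RNA; colours give the span class, bars the medians and dotted lines a 2-fold difference. In the poly(A) fraction the bar lies at 1.83 for snRNA and at -0.25 for pseudogenes, and no snRNA or snoRNA was measured in the short fraction.

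Measured in both mRNA and long RNA were 44 snRNAs, of which 38 were higher in the poly(A) fraction and 13 in the long fraction. With at least 20 fragments in each fraction, 27 remained to compare. Of these 26 were higher and 0 lower in the poly(A) fraction, and 8 were higher and 3 lower in the long fraction. The mRNA difference exceeded the long RNA difference in 27 of 27, with medians of 2.96 and -0.24. The fractions were normalized separately, so these are differences within each fraction set side by side.

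**Figure D4:**
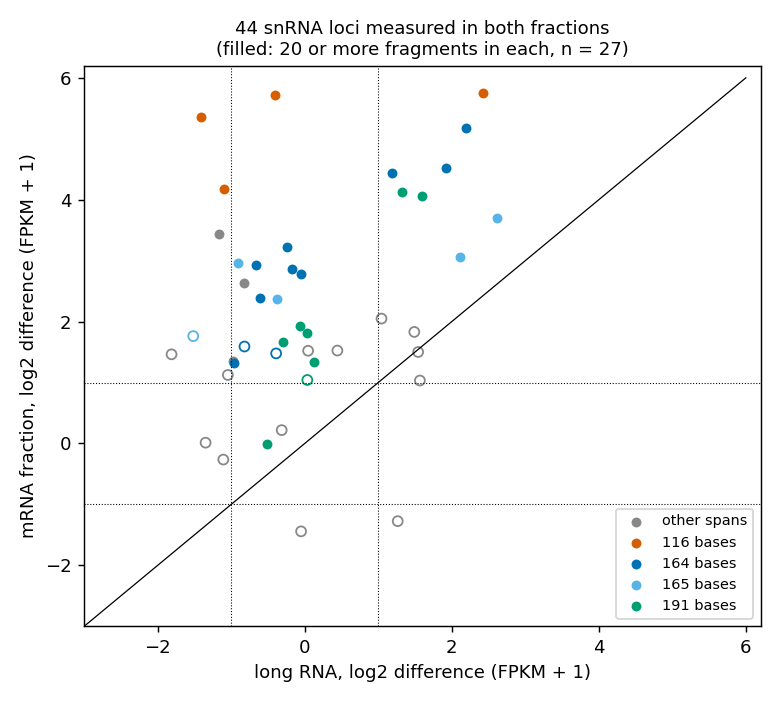
Log2 difference in the mRNA fraction (vertical) against that in the long fraction (horizontal) for 44 snRNA loci, coloured by span. Filled points have at least 20 fragments in each fraction, with both libraries summed, and the line marks equal differences. All 27 filled points lie above the line, with a median of 2.96 in the poly(A) fraction and -0.24 in the long fraction.

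The 3 highest log2 differences in the poly(A) fraction were at loci of U5 length (Gm25313, Gm23287 and Gm23143). Gm23143 (chr4:117202528-117202643) had 9.60 FPKM in wild-type and 432.9 FPKM in Drosha-deficient mRNA, from 13 and 554 fragments. In the long fraction it had 14426 and 5447 FPKM, from 19504 and 7278 fragments, and it was called lower there. Per library size its fragments were 37.6 times as many in the poly(A) fraction (exact 95% interval 21.8 to 71.1, covering counting error only). Gm25099 (chr4:117189942-117190057) had 24.4 and 457.9 FPKM in the poly(A) fraction and 5828 and 2717 FPKM in the long fraction, again opposite calls. Gm23287, the third of this chromosome 4 group, had 2.95 and 207.1 FPKM in the poly(A) fraction and 2273 and 1714 FPKM in the long fraction. Gm25313 on chromosome 9 had 1.48 and 132.8 FPKM in the poly(A) fraction, from 2 and 170 fragments, and 217.1 and 1165 FPKM in the long fraction, so this copy was higher in both. The fifth, Gm23102 on chromosome 17, was not measured in the poly(A) fraction. Summed over the 5, mRNA went from 38.4 to 1231 FPKM, 32.1-fold, and long RNA from 22771 to 11060 FPKM, 2.06-fold lower.

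Of the 15 loci of 164 bases, the length of U1, 11 were measured in the poly(A) fraction. All 11 were higher there, with a median of 2.86. A locus is measured once either library reaches 1 FPKM, so this count favours copies that are high in 1 library. Of the 11, 2 had under 1 FPKM in 1 library. In the long fraction 3 were higher and 1 lower of 15. A block of 7 lies within chr12:54696782-54738622. In wild-type mRNA the 7 copies had 0.825 to 15.3 FPKM and in Drosha-deficient mRNA 56.4 to 122.4 FPKM. Their sum went from 40.8 to 489.2 FPKM, 11.97-fold, while their sum in the long fraction was 2572 and 2616 FPKM. The copies did not share the long RNA change. Gm25679 went from 62.1 to 287.2 FPKM, Gm22317 from 72.2 to 275.7 FPKM and Gm24305 from 145.8 to 332.1 FPKM. Gm22513, the highest copy, went from 1259 to 793.3 FPKM. Apart from Gm22513, the long RNA levels ran from 62.1 to 363.8 FPKM in wild type and from 275.7 to 332.1 FPKM in Drosha-deficient cells, a ratio of highest to lowest of 5.86 and 1.204. The 5 loci of 165 bases were all higher in the poly(A) fraction (median 2.96), where 3 of them had under 1 FPKM in 1 library. In the long fraction 2 were higher and 1 lower.

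The same narrowing between copies appeared in other families, which were looked at after these values were seen. Of the loci of 191 bases, 4 on chromosome 11 had a highest to lowest ratio in the long fraction of 3.28 in wild type and 1.32 in Drosha-deficient cells; Gm23971 among them went from 507.6 to 1532 FPKM. Their ratio in the poly(A) fraction was 11.2 in wild type and 1.58 in Drosha-deficient cells. The 2 copies of 7SL RNA had ratios of 48.2 and 2.73 in the long fraction, 48.9 and 3.11 in the poly(A) fraction, and 23.2 and 3.52 in the short fraction. The 5 loci of 165 bases went the other way, from 8.94 to 18.6 in the long fraction, as did the full sets of 164 and 191 bases, whose lowest copies had few fragments. How reads that fit several near-identical copies were placed is not stated, so the split between copies is uncertain, and sums over a family are the firmer values.

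Over all 9 loci of 191 bases the sum was 978.8 FPKM in wild-type and 2262 FPKM in Drosha-deficient mRNA, 2.31-fold higher, with 7 of 8 measured called higher. The sums in the long fraction were 11143 and 11119 FPKM. Gm25360 (chr1:72226240-72226430) had the highest wild-type level of any measured snRNA locus in the poly(A) fraction and was the exception there, with 516.0 and 513.2 FPKM, and with 3670 and 2567 FPKM in the long fraction. Gm22973 on chromosome 12 had 156.9 and 598.3 FPKM in the poly(A) fraction and 2179 and 2093 FPKM in the long fraction. A pair of 141 bases on chromosome 5, Gm24265 and Gm24407, went from 5.25 to 67.0 and from 8.93 to 60.7 FPKM in the poly(A) fraction. Their values in the long fraction went from 1827 to 810.7 and from 1572 to 886.1 FPKM, and only Gm24265 reached the call.

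The 94 loci of U6 length are many and faint. Together they held 234 fragments in wild-type and 377 in Drosha-deficient long RNA, and 13 and 25 in the poly(A) fraction. Of these 35 were called higher and 11 lower in the long fraction, with a median of 0.62, but the median locus held 4 fragments in both libraries together. The 4 with at least 20 fragments had 2 higher and 0 lower. Gm26501 had 11.02 and 32.8 FPKM, from 13 and 37 fragments, and Gm23095 had 22.0 and 21.3 FPKM. Gm25698 and Gm23217 ranked among the 6 highest differences in the long fraction on 1 against 14 and 0 against 8 fragments. None of these snRNA records was above 0 in the short fraction.

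Inside Taf1d, 7 loci were snoRNA or snoRNA pseudogene records beside the microRNA record. Gm24299 (chr9:15314074-15314144, 71 bases) had the highest FPKM of any short locus in the long fraction, 25071.5 in wild-type and 56405 in Drosha-deficient cells. By fragments, Gm22405 (300 bases) stood above it there, with 108906 and 48452. In the poly(A) fraction Gm24299 had 120.9 and 1816 FPKM, from 58 and 645 fragments. Its fragments in the long fraction were 13310 and 22730, which per library size is 1.42 times as many (exact 95% interval 1.39 to 1.46, counting error only); with the wild-type fragment length its log2 difference was 0.51 in place of 1.17 and it was not called. Gm24357 (74 bases) had 210.4 and 749.5 FPKM in the poly(A) fraction and 1934 and 4671 FPKM in the long fraction. Gm25791 (137 bases) had 38.02 and 136.0 FPKM in the poly(A) fraction and 2185 and 3762 FPKM in the long fraction. Over the 8 loci, 3 were higher and 0 lower in the poly(A) fraction (median 0.61), and 2 higher and 0 lower in the long fraction (median 0.66). With the wild-type fragment length 0 were higher and 1 lower in the long fraction.

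No other locus inside Taf1d reached the call. Gm24455 had 82.1 and 130.7 FPKM in the poly(A) fraction and 345.4 and 595.0 FPKM in the long fraction, and Gm22620 had 9.27 and 14.2 FPKM and 108.7 and 158.6 FPKM. Gm23455 had 70.7 and 76.8 FPKM and 288.0 and 266.4 FPKM. Gm22579, the last in order, had 10.4 and 10.03 FPKM in the poly(A) fraction and 41.2 and 23.3 FPKM in the long fraction, the lowest long RNA difference of the 8 (-0.80, or -1.01 with the wild-type fragment length). The microRNA locus Gm25500 had 6.64 and 3.45 FPKM in the poly(A) fraction and 24.3 and 31.6 FPKM in the long fraction, from 10 and 5 and from 36 and 47 fragments. It was listed at 0 in both short RNA libraries, where 124 of 132 measured microRNA genes were lower. The Taf1d row itself had 57.8 and 59.1 FPKM in the poly(A) fraction and 76.0 and 95.1 FPKM in the long fraction, so it was called in neither. That row spans chr9:15283337-15312104 and ends before the 8 loci, which lie inside the longer gene of the RefSeq annotation.

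**Figure D5:**
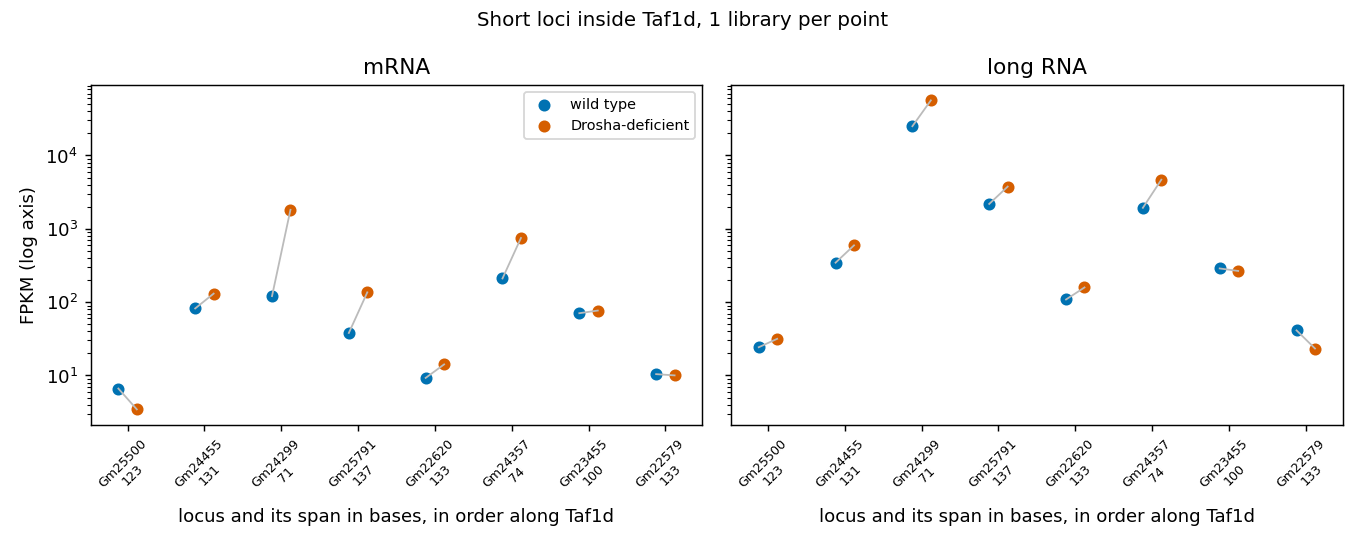
FPKM (log axis) of the 8 short loci inside Taf1d, in order along the gene with their spans in bases, in the mRNA and long RNA libraries; each point is 1 library, blue wild type and orange Drosha-deficient. Gm24299 goes from 120.9 to 1816 FPKM in the poly(A) fraction and from 25071.5 to 56405 FPKM in the long fraction, and Gm22579 is at 10.4 and 10.03 FPKM in the poly(A) fraction.

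A second run of 9 short loci lies on chromosome 12 between the RefSeq genes Rian and Mirg (from 109673913 to 109728943), in the imprinted Dlk1-Dio3 domain; 6 are snoRNA records, 2 pseudogenes and 1 has no record. This set was chosen after its values were seen. In the poly(A) fraction 6 of 7 measured were higher and 0 lower (median 1.73), on 17 fragments in wild-type and 45 in Drosha-deficient cells. Of 9 in the long fraction 1 was higher and 3 lower (median -0.35), and their sum was 653.3 FPKM in wild-type and 459.0 FPKM in Drosha-deficient cells. Gm23787 (chr12:109684962-109685034) led the group with 265.9 and 116.7 FPKM in the long fraction, called lower. In the poly(A) fraction it had 15.8 and 53.1 FPKM, called higher on 8 and 20 fragments. Per library size these mRNA fragments were 2.21 times as many (exact 95% interval 0.931 to 5.79, counting error only). Gm25854 had 151.7 and 102.5 FPKM in the long fraction, and Gm22205 had 15.1 and 44.8 FPKM.

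Other snoRNA records went opposite ways. Gm24826 (chr1:39519533-39519747) and Gm24949 (chr11:96032678-96032892) both span 215 bases, the length of Rnu3b1, a gene of the U3 snoRNA that acts in ribosomal RNA cleavage. Gm24826 had 414.1 and 164.8 FPKM in the long fraction, and Gm24949 had 440.6 and 138.5 FPKM. In the poly(A) fraction Gm24826 had 7.24 and 17.6 FPKM, and Gm24949 had 5.85 and 14.7 FPKM, so both were called lower in the long fraction and higher in the poly(A) fraction. Gm26326 was lower in both, from 24.4 to 3.76 FPKM in the poly(A) fraction and from 53.2 to 13.6 FPKM in the long fraction. Gm23974 went from 17.1 to 0.599 FPKM in the long fraction, from 28 fragments to 1. Gm24463 (72 bases) had 22.5 and 158.2 FPKM in the poly(A) fraction and 1208 and 1089 FPKM in the long fraction.

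The 2 small cytoplasmic RNA records are the 7SL genes, called Rn7s1 and Rn7s2 by RefSeq. Gm22405 (Rn7s1, chr12:69159295-69159594) had 6372 FPKM in wild-type and 23725.5 FPKM in Drosha-deficient short RNA. In the long fraction it had 22262.5 and 8686 FPKM, so it was called higher in the short fraction and lower in the long fraction. Its poly(A) fraction values were 132.2 and 264.0 FPKM, and it fell just under the call, at 0.99. Gm26191 (Rn7s2, chr12:69361182-69361481) had 274.2 and 6748 FPKM in the short fraction, 462.3 and 3187 FPKM in the long fraction, and 2.70 and 84.8 FPKM in the poly(A) fraction, and was higher in all 3. Summed over both copies, short RNA went from 6646 to 30473 FPKM, 4.58-fold, and long RNA from 22725 to 11872 FPKM, 1.91-fold lower. With the wild-type fragment length the short RNA log2 differences were 1.65 in place of 1.90 for Gm22405 and 4.37 in place of 4.62 for Gm26191.

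A few loci of about 300 bases without a record showed the same direction in all 3 fractions. Gm24105 (293 bases) had 45.1 and 1416 FPKM in the short fraction, from 33 and 997 fragments, 108.8 and 469.7 FPKM in the long fraction, and 0.557 and 8.03 FPKM in the poly(A) fraction. Gm26035 (308 bases) had 5.17 and 261.1 FPKM in the short fraction, 47.9 and 416.6 FPKM in the long fraction, and 0.873 and 31.2 FPKM in the poly(A) fraction. Gm22179 (291 bases, inside Igk) did not share 1 direction and was called in the poly(A) fraction alone, at 47.6 and 174.1 FPKM. It fell from 6401 to 4187 FPKM in the long fraction and rose from 1037 to 1838 FPKM in the short fraction. The pseudogenes Gm4613 and Gm13192 were higher in all 3 too, but in the short fraction on 0 against 5 fragments each. Gm10180 and Gm26339 were called higher in the short fraction on 1 and 2 fragments.

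Of the 16 lower loci of short RNA, 9 spanned 90 to 150 bases, 6 spanned more and 1 less; those on the most fragments were of about 110 bases and had no record. Gm24372 (110 bases, chromosome 18) had 962.6 FPKM in wild-type short RNA, from 225 fragments, and 0 in Drosha-deficient cells. In the long fraction it had 34.8 FPKM, from 43 fragments, and 0, and in the poly(A) fraction 1.63 and 0. Gm26168 (112 bases, chr6:122623547-122623658) had 1484 and 475.9 FPKM in the short fraction, from 356 and 68 fragments, 657.1 and 292.1 FPKM in the long fraction, and 2.36 and 5.06 FPKM in the poly(A) fraction. Per library size its short RNA fragments in Drosha-deficient cells were 0.167 times those of wild type (exact 95% interval 0.127 to 0.217, counting error only). Gm23921 (107 bases) had 141.8 and 15.8 FPKM in the short fraction, from 32 and 2 fragments, and 7.63 and 1.77 FPKM in the long fraction. Gm22199 (126 bases) had 28.9 FPKM from 8 fragments and 0, with 23.4 and 0.643 FPKM in the long fraction.

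None of these 4 lies near a RefSeq microRNA gene: the nearest is 207719 bases away, for Gm26168. For scale, Rny1, a Y RNA gene of 112 bases, had 121237 and 24164.5 FPKM in the short fraction, and Rny3, another Y RNA gene of 102 bases, had 17183 and 35908 FPKM. The other lower loci of 90 to 150 bases rested on few fragments: Gm24203 on 8 against 2, and Gm24045 and Gm26438 on 3 against 0. Gm26124 rested on 2 against 0 and Gm27379 on 1 against 0. Unlike the 4 above, Gm27379 (123 bases) does lie near a microRNA gene, 382 bases from Mir544. Among longer loci, Gm25687 (241 bases) had 15.2 and 3.696 FPKM in the short fraction, 259.5 and 30.6 FPKM in the long fraction, and 4.77 and 0.445 FPKM in the poly(A) fraction. Gm26323 and Gm15796 were lower in the short fraction on 3 and 2 fragments against 0.

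Reads from parent genes could be placed on pseudogenes. Gm15148 (156 bases) had the highest wild-type level of any short locus in the poly(A) fraction, with 791.7 and 818.8 FPKM, and had 225.9 and 245.9 FPKM in the long fraction. Gm14303 (171 bases) had 466.1 and 808.6 FPKM in the poly(A) fraction, 81.9 and 206.0 FPKM in the long fraction, and 17.5 and 53.3 FPKM in the short fraction. Its calls were higher in long RNA, on 197 and 536 fragments, and in short RNA, on only 7 and 17 fragments. Gm10443 (210 bases) had 409.3 and 243.1 FPKM in the poly(A) fraction and 151.7 and 83.1 FPKM in the long fraction, and Gm10263 (300 bases) had 134.3 and 95.4 FPKM and 52.1 and 36.1 FPKM. Gm5514, the lactate dehydrogenase B pseudogene Ldhb-ps, was lower in both, from 199.5 to 28.6 FPKM in the poly(A) fraction and from 81.0 to 13.6 FPKM in the long fraction. Gm13611 went from 104.9 to 43.0 and from 48.2 to 22.8 FPKM, and Gm13875 from 16.2 to 3.23 and from 5.93 to 1.74 FPKM. Gm24621 (140 bases) went from 123.9 to 7.47 FPKM in the long fraction, from 225 to 14 fragments.

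Among loci without a record, Gm24601 (143 bases, chr6:94826781-94826923) had 97.0 and 657.8 FPKM in the poly(A) fraction and 298.5 and 42.7 FPKM in the long fraction, from 190 and 1292 and from 558 and 84 fragments. Its calls were opposite. Gm24245 (57 bases) had 179.3 and 373.0 FPKM in the poly(A) fraction, 89.9 and 10.499 FPKM in the long fraction, and 21.9 FPKM and 0 in the short fraction. Its mRNA fragments were about 52 and 70, 1.19 times as many per library size (exact 95% interval 0.818 to 1.74, counting error only), so its fragments differed less than its FPKM. Gm12038 and Gm26384 were higher in both, from 4.11 to 63.5 and from 4.07 to 26.3 FPKM in the poly(A) fraction and from 2.26 to 23.6 and from 1.62 to 31.0 FPKM in the long fraction. Gm27684 (80 bases) had 71.5 and 38.01 FPKM in the poly(A) fraction and 24.8 and 24.7 FPKM in the long fraction. Gm11918 went from 9.76 to 0.348 FPKM in the poly(A) fraction, from 27 fragments to 1, with 2.34 and 1.44 FPKM in the long fraction. The lowest mRNA differences also held Gm24187 and Gm25732, each on 1 fragment against 0.

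Between fractions, 252 loci were measured in both mRNA and long RNA: 45 were higher in both, 32 lower in both, 16 higher in the poly(A) fraction and lower in the long fraction, and 2 the reverse. Of 43 measured in both long and short RNA, 11 were higher in both, 11 lower in both and 1 opposite. Of 38 measured in the poly(A) fraction and short RNA, 12 were higher in both, 4 lower in both and 2 higher in the poly(A) fraction and lower in the short fraction. Pearson's r of the log2 differences across these loci was 0.54, 0.86 and 0.64 in this order. The loci are not independent replicates, share libraries and in part share sequence, and the short RNA differences rest on few fragments. The same counts were not taken over all rows, so they cannot be read as particular to these loci.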

How the data were processed

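Of 12 samples in the series, 6 RNA libraries were analysed (wild-type and Drosha-deficient cells, 3 fractions each); the others were not analysed here. The authors deposited 1 Cuffdiff table per fraction, whose FPKM values, status and mm10 coordinates were used as given. The tables also hold the authors' log2 fold changes, p-values and q-values, deposited per the file headers and not used, since each comes from 1 library per genotype. The submitters' processing notes name Cuffdiff with Cufflinks 2.1.1, TopHat2 2.0.10 and bcl2fastq 1.8.4, with no order. The sources used here do not give strand handling or library-size scaling.

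Differences were computed as log2((Drosha-deficient FPKM + 1)/(wild-type FPKM + 1)) for rows with status OK and at least 1 FPKM in 1 library, and a 2-fold difference was a call; no test was possible without replicates. Numbers of fragments were recovered from the steps between low FPKM values (whole within 0.1) with a fitted fragment length, and depth limits loci of few fragments most. The procedures were tested on simulated data. For the recovery of fragments, no simulated library had a mean fragment as short as the 23.9 bases fitted for wild-type short RNA. RefSeq records (GRCm38) were matched by at least 90% reciprocal overlap, and by name for records of at most 1500 bases. Named loci were those with the highest levels per span class, the 6 highest and 6 lowest differences per fraction, those measured in all 3 fractions, the extremes between short and long RNA and those nearest the limits; family members and loci of the Taf1d and Rian to Mirg runs were added after values were seen. The loci, lists and comparison classes were chosen with earlier results of these data known. Python 3.11.15, numpy 2.4.6, scipy 1.17.1, pandas 2.3.3 and matplotlib 3.10.9 were used.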

Additional observations from a re-analysis of the deposited data

Results flagged for a closer look

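Among loci with at least 20 fragments in each of a pair of fractions, 9 had calls that pointed opposite ways. None of these differences between fractions was tested, and the share of such calls over all rows was not computed. On the log2 scale, the mRNA difference minus the long RNA difference was 6.76 for Gm23143 and 5.28 for Gm25099 (both of U5 length), 5.53 for Gm24601 and 4.61 for Gm24265. It was 4.04 for Gm24245, a locus of 57 bases whose FPKM depends most on the modelled fragment. For the snoRNA records it was 2.87 for Gm23787, 2.86 for Gm24949 and 2.50 for Gm24826. The mRNA call of Gm23787 rested on 8 and 20 fragments. For the 7SL gene Gm22405 the long RNA difference minus the short RNA difference was -3.25.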

How the results depend on the processing

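No paired analysis was possible because each genotype has 1 library per fraction. With 1 library each, no value here has a replicate error, and the exact intervals cover counting error alone. Counts and shares here run mRNA higher and lower, then long RNA higher and lower. The counts 114, 61, 115 and 124 became 60, 23, 42 and 49 with a pseudocount of 5 FPKM. The share of all rows called then fell to 3.74%, 2.53%, 2.26% and 2.4%, from 8.64%, 7.93%, 6.26% and 6.89%. With a minimum of 5 FPKM the counts were 73, 34, 54 and 74, of 169 loci in mRNA and 239 in long RNA. All rows then had 9.13%, 7.41%, 6.01% and 7.18%. The counts became 52, 20, 75 and 66 with spans of at most 150 bases, of 105 and 263 loci. With at least 20 fragments they were 63, 36, 43 and 67, of 163 and 219 loci. All rows with at least 20 fragments had 8.15%, 7.68%, 5.72% and 6.29%. The last 3 of these settings test fewer loci. In short RNA, 17 higher and 16 lower of 48 became 43 and 36 of 103 when only FAIL and HIDATA rows were dropped. All rows then had 11.32% and 12.16%, against 14.79% and 18.37% before. With spans of at most 150 bases the short RNA counts were 3 and 10 of 14. With at least 20 fragments they were 7 and 3 of 14, where all rows had 13.54% and 16.99%. These counts stayed within 1.5 times under a pseudocount of 0.1 FPKM, no minimum, centring on the median of all rows, and the wild-type fragment length for both libraries. The 20-fragment and fragment-length settings were chosen after seeing the data. With the wild-type fragment length the median went from -0.17 to -0.40 in long RNA and from 0.77 to 0.33 in short RNA. Medians kept their sign except in loci of at most 150 bases, where that of long RNA was 0.099 in place of -0.17 and that of short RNA -2.66 in place of 0.77; the cause was not tested.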
